A study of Rattus norvegicus with 10 samples.

Results

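The genes described here are 10 transporters that carry amino acids across the plasma membrane of animal cells: Slc43a2, Slc7a1, Slc7a3, Slc7a5, Slc7a11, Slc3a2, Slc1a4, Slc1a5, Slc38a1 and Slc38a2. They were found by gene symbol in the platform annotation, and 9 of the 10 have a named probeset among the 23188 probesets tested. Slc7a1, a carrier of arginine and lysine, has no named probeset and was not analysed here. They were chosen by gene family and by their measured differences between ShBNIP3 and ShCtrl arrays, which were already in view. The values of these genes in that comparison are therefore a description, with no test.

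RNA came from cultured nucleus pulposus cells, which fill the gel-like centre of each intervertebral disc, taken from male Sprague Dawley rats of 300 g, which the series text gives as 3 to 4 months old. In 5 samples (ShBNIP3, arrays 6 to 10) a lentivirus delivered a short hairpin RNA against Bnip3, a mitophagy receptor of the outer mitochondrial membrane. In the other 5 (ShCtrl, arrays 1 to 5) it delivered a control hairpin in the pLKO.1 vector, so both groups were transduced, and RNA was taken 4 days later. No label says how many hairpin sequences were used, or whether the 5 arrays of a group stand for different cultures or rats, so SDs and p-values reflect only how these samples vary, possibly for technical reasons.

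Cells take up amino acids through families of solute carriers that differ in substrate and driving force. Sodium-coupled carriers such as those of the SLC38 family concentrate neutral amino acids, and exchangers of the SLC1 and SLC7 families trade what has been accumulated for other amino acids, glutamine against leucine being the textbook case. Several SLC7 carriers reach the cell surface only as a disulfide-linked pair with the glycoprotein encoded by Slc3a2. Many of these genes are known targets of ATF4, the transcription factor induced when amino acids run short, and some are targets of MYC.

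Levels are on the authors' normalized log2 scale, and differences are ShBNIP3 minus ShCtrl on that scale. Bnip3 itself was at 11.14, 11.26, 10.59, 11.31 and 12.68 on ShBNIP3 arrays 6 to 10, against 14.29, 14.29, 13.94, 15.97 and 14.54 on ShCtrl arrays 1 to 5 (difference -3.21, SE 0.40, exact two-sided permutation p = 0.0079, the smallest that 5 against 5 arrays can give). Over all probesets the mean Pearson correlation with the rest of the own group was 0.986 for ShBNIP3 array 10 and 0.983 for ShCtrl array 4, and 0.992 for each of the other arrays. These 2 arrays stand apart. Results refitted without them are given both ways where they move, but genes named after their values were seen were not refitted. Nucleus pulposus markers were sparse: 7 of 15 measured, among them Krt8, Krt18, Krt19, Tbxt, Noto and Shh, lay below background on all 10 arrays. Of the 15, 1 was called higher and 3 lower, beside 7.61% and 7.87% of all probesets. Cdh2 was the higher one, at 7.30 in ShBNIP3 and 5.85 in ShCtrl, where it was below background on every array (limma adjusted p = 0.000523). Car3 averaged 10.3 in ShBNIP3 and 11.6 in ShCtrl (0.00480), and Comp was called lower while below background on all arrays. Acan averaged 12.3 in ShBNIP3 and 13.2 in ShCtrl (limma adjusted p = 0.190) and Col2a1 9.19 in ShBNIP3 and 9.86 in ShCtrl (0.0133). The mean level of the marker list was 6.14 to 6.30 on ShBNIP3 arrays and 6.47 to 6.86 on ShCtrl arrays, ranges that do not overlap. Its part in the results below was not tested.

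The mean level of the fibroblast list was 13.8 to 14.1 on ShBNIP3 arrays and 14.0 to 14.1 on ShCtrl arrays (3 of 8 genes lower, Thy1, Col1a1 and Col1a2). The macrophage and leukocyte list lay at 5.48 to 5.94 on ShBNIP3 arrays and 5.23 to 5.51 on ShCtrl arrays (3 of 10 genes higher, Cd14, Cd68 and Cd53), with 7 of the 10, among them Ptprc, Csf1r, Adgre1 and Cd53 itself, below background on every array. Among all probesets 7.61% were called higher and 7.87% lower. The part of these lists in the results was not tested. The measured endothelial, skeletal muscle and erythroid markers (8, 6 and 4) were below background on all arrays.

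In ShBNIP3 cells the largest of the transporter differences was that of Slc43a2, at 8.40 times its level in ShCtrl cells, while Slc1a4 stood at 19.9% and Slc38a1 at 44.3% of the ShCtrl level. Slc7a5, Slc1a5 and Slc38a2 were also lower, at 52.5% to 58.9%. Slc3a2 and Slc7a3 were somewhat higher, with groups that overlapped, and Slc7a11 hardly differed. Fewer cells that use a gene and less RNA per cell cannot be told apart in these bulk samples. In the fit across all probesets 1 of the 9 was called higher and 5 lower at an adjusted p under 0.05, where 7.61% of all probesets were called higher and 7.87% lower (15.5% in all). Groups did not overlap for 5 of the 9, 1 higher and 4 lower, against 12.9% of all probesets (6.6% higher and 6.29% lower). Since the list was chosen with this contrast known, nothing is read from these counts. The median difference of the 9 genes was -0.76, beside 0.02 over all probesets tested.

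Because members with large differences stand on both sides, the sequence just before the start of transcription is shown for the member with the largest rise, the pair with the largest falls and the large neutral amino acid carrier Slc7a5. Sequences are from RefSeq, build GRCr8, the 250 bases before the annotated start, read 5′ to 3′ on the gene's strand. The Slc43a2 window is chr10:60874588-60874837, plus strand. For Slc1a4 it is chr14:98761563-98761812, minus strand. For Slc38a1 it is chr7:129681402-129681651, minus strand. For Slc7a5 it is chr19:66872413-66872662, minus strand. Capitals mark matches to TGATGNAA, the core of the ATF4 response element, or to CACGTG, the E-box that MYC and related factors bind, on either strand.
Slc43a2: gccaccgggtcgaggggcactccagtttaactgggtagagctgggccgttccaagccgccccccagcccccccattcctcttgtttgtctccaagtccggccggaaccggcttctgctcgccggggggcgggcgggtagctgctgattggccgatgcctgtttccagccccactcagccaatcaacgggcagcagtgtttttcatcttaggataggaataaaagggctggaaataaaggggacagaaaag
Slc1a4: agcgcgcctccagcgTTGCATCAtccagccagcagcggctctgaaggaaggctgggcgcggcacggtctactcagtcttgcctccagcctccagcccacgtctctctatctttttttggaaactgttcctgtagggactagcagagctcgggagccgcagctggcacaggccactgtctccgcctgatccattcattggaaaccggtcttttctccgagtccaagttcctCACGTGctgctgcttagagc
Slc38a1: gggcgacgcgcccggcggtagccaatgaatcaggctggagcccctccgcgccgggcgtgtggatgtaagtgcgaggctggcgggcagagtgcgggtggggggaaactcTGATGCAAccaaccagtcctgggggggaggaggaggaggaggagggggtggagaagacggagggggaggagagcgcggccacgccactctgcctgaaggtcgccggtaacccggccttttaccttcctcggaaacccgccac
Slc7a5: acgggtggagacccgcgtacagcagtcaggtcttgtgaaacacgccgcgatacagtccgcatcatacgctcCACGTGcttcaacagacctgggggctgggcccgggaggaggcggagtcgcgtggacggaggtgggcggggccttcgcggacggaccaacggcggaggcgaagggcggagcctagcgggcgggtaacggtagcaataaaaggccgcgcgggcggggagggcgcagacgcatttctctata

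Positions are counted back from the start. The match in Slc38a1 reads TGATGCAA and begins at -142. In Slc1a4 the same core lies on the opposite strand, where the printed strand reads TTGCATCA from -235. An E-box begins at -20 in Slc1a4 and at -179 in Slc7a5. The Slc43a2 window holds neither motif. Neither does that of Slc38a2, which was lower in ShBNIP3, and the lower gene Slc1a5 has no window. Of the 10 genes 8 have a window in the table, 9 windows in all since Slc3a2 has 2 starts, and the other gene with the ATF4 core is Slc7a1 (TGATGAAA). TGATGNAA occurs in 3.4% of the 33469 windows of this length in the RefSeq table and CACGTG in 5.59%. The core of the antioxidant response element, TGACNNNGC, which overlaps neither of the others in these windows, occurs in 10.1% and was found for Slc7a1, Slc3a2 and Slc38a2. A match is a description of the letters, not evidence of binding, and known response elements of some of these genes lie in introns or first exons that were not searched.

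Slc43a2 encodes a facilitative carrier of large neutral amino acids (branched-chain amino acids, phenylalanine and methionine) that works without sodium and without an exchange partner. Its level was 10.38, 10.70, 11.85, 11.76 and 11.26 on ShBNIP3 arrays 6 to 10, against 7.87, 8.01, 7.92, 8.74 and 8.05 on ShCtrl arrays 1 to 5. Every ShBNIP3 array lay above every ShCtrl array, and the highest ShCtrl value, on array 4, was still well below the lowest ShBNIP3 value, on array 6. The means were 11.2 ± 0.64 in ShBNIP3 and 8.12 ± 0.36 in ShCtrl (SD, n = 5 each), a difference of 3.07 (SE 0.28). By size it ranked 17 among all rises on the array. It was between 2.91 and 3.27 when any 1 array was left out. The ShBNIP3 arrays did not form 1 level: arrays 6 and 7 lay lower than arrays 8, 9 and 10.

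The related carrier Slc43a1, with a like substrate range, was below background on all 10 arrays, as was Slc43a3, so no fold is given for either. Among the SLC43 genes measured, Slc43a2 was thus the member with a level above background.

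Slc7a5 encodes the light chain of the main exchanger for large neutral amino acids, which brings in leucine in exchange for glutamine. Its level was 12.52, 12.45, 12.38, 12.61 and 11.78 on ShBNIP3 arrays 6 to 10, against 13.24, 13.27, 13.37, 12.85 and 13.65 on ShCtrl arrays 1 to 5. The groups did not overlap, and the arrays that stand apart, 10 and 4, were the lowest of their groups. The means were 12.3 ± 0.33 and 13.3 ± 0.29, a difference of -0.93 (SE 0.18). So Slc43a2 was higher and Slc7a5 lower in ShBNIP3 cells, although both carry leucine and other large neutral amino acids. Carriers outside the list, among them other light chains of Slc3a2, are given below.

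Slc3a2 encodes the heavy chain (CD98) that pairs with the products of Slc7a5 and Slc7a11 and with several of their relatives. Its level was 16.02, 15.88, 16.18, 16.12 and 15.40 on ShBNIP3 arrays 6 to 10, against 15.46, 15.46, 15.28, 15.46 and 15.62 on ShCtrl arrays 1 to 5. On 4 ShBNIP3 arrays it lay above all ShCtrl arrays, and array 10 fell within the ShCtrl range. The means were 15.9 ± 0.31 and 15.5 ± 0.12, a difference of 0.46 (SE 0.15), or 0.60 without arrays 4 and 10. The heavy chain thus did not share the direction of its light chain Slc7a5. Its probeset was among the brightest of the array, with a mean level at percentile 98.6 of all probesets.

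Slc7a11 encodes the light chain that exports glutamate and imports cystine, the source of cysteine for glutathione. Its level was 10.94, 9.85, 10.31, 10.49 and 9.65 on ShBNIP3 arrays 6 to 10, against 9.98, 10.42, 10.24, 9.30 and 10.58 on ShCtrl arrays 1 to 5. The groups overlapped almost fully, with arrays 10 and 4 lowest in their groups. The difference was 0.14 (SE 0.27), and it lay between -0.06 and 0.29 with 1 array left out. No direction can be given for this gene.

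Slc7a3 encodes a carrier of cationic amino acids (arginine, lysine and ornithine) that in rodents is known mainly from neurons. Its level was 7.04, 6.51, 6.68, 7.71 and 6.87 on ShBNIP3 arrays 6 to 10, against 5.98, 6.14, 6.78, 6.45 and 5.98 on ShCtrl arrays 1 to 5. Background, taken as the 95th percentile of probesets that match no gene, was 6.50 to 6.78 over the arrays. The gene lay below it on 2 ShBNIP3 arrays and 4 ShCtrl arrays, so the difference of 0.70 (SE 0.23) is one near the limit of detection.

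**Figure D1:**
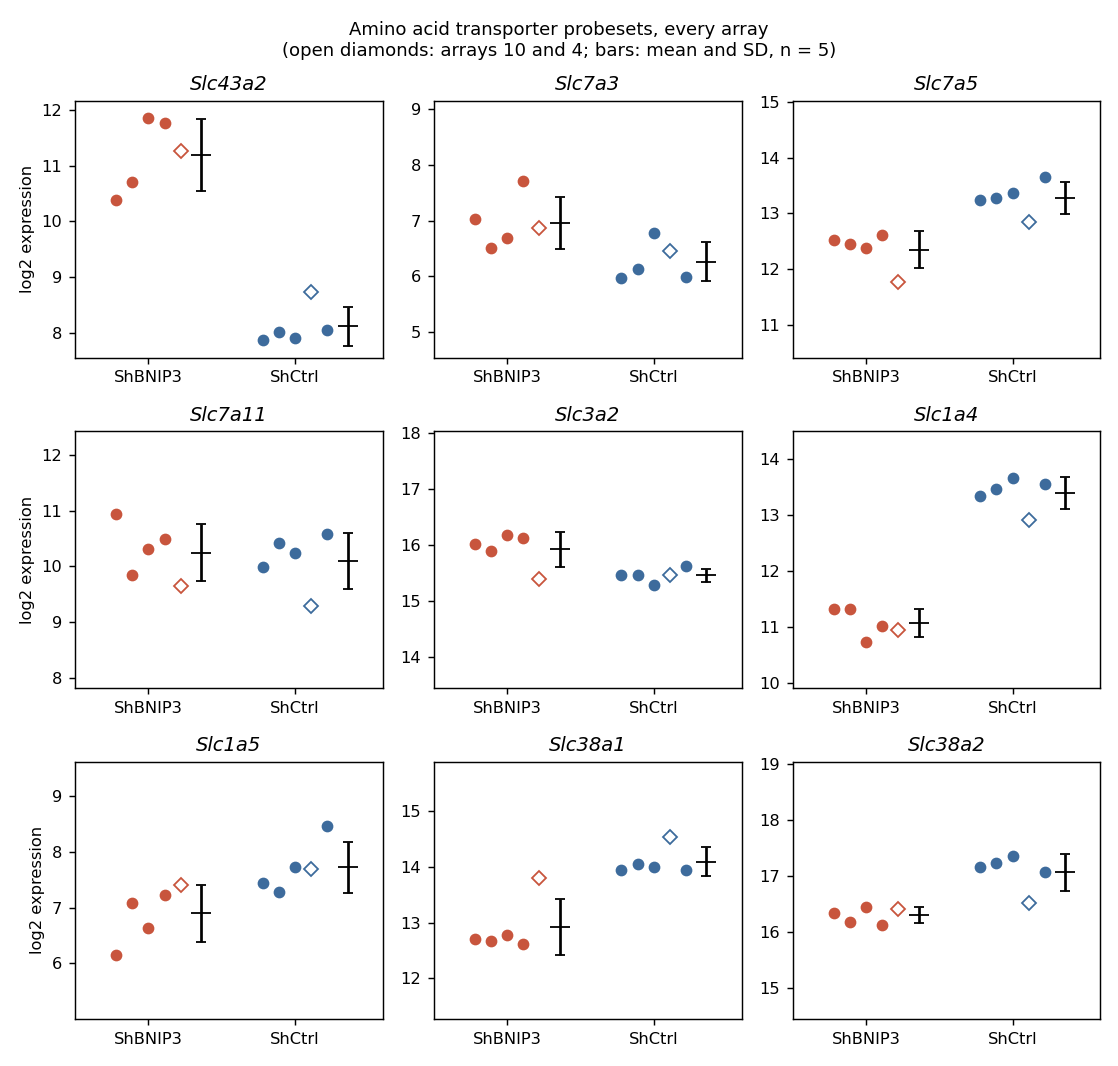
Log2 expression of the 9 measured amino acid transporters on every array, ShBNIP3 (arrays 6 to 10, left) and ShCtrl (arrays 1 to 5, right), with group mean and SD and the same span of log2 units in every panel. Slc43a2 separates upward and Slc1a4, Slc38a1, Slc38a2 and Slc7a5 downward, while the groups of Slc7a3, Slc7a11, Slc3a2 and Slc1a5 overlap.

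The SLC1 pair are sodium-dependent exchangers of small neutral amino acids. Slc1a4 carries alanine, serine, cysteine and threonine. Its level was 11.31, 11.32, 10.73, 11.02 and 10.94 on ShBNIP3 arrays 6 to 10, against 13.35, 13.47, 13.67, 12.92 and 13.56 on ShCtrl arrays 1 to 5. The groups lay far apart: the highest ShBNIP3 value was 11.32 and the lowest ShCtrl value, on array 4, 12.92. The means were 11.1 ± 0.25 and 13.4 ± 0.29, a difference of -2.33 (SE 0.17), a 5.02-fold lower level. It ranked 62 among all falls on the array and lay between -2.45 and -2.24 with 1 array left out.

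Slc1a5 carries glutamine besides the substrates of Slc1a4 and is known as a main entry route of glutamine in dividing cells. Its level was 6.15, 7.07, 6.64, 7.23 and 7.40 on ShBNIP3 arrays 6 to 10, against 7.45, 7.28, 7.73, 7.70 and 8.47 on ShCtrl arrays 1 to 5. The groups met at 7.28 to 7.40, where 1 array of each overlapped, and the ShBNIP3 values on arrays 6 and 8 were below background. The means were 6.90 ± 0.50 and 7.72 ± 0.45, a difference of -0.83 (SE 0.26) that ranged from -0.95 to -0.64 with 1 array left out. Both SLC1 members were thus lower in ShBNIP3, the dim one by less, and a fold near background understates a change.

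The SLC38 pair are sodium-coupled carriers of glutamine, alanine and other small neutral amino acids, and Slc38a2 is known to be induced by amino acid shortage and by high osmolarity. Their genes are neighbours on the RefSeq assembly, with no protein-coding gene between them. Slc38a1 was at 12.70, 12.67, 12.78, 12.61 and 13.80 on ShBNIP3 arrays 6 to 10, against 13.93, 14.04, 13.99, 14.54 and 13.94 on ShCtrl arrays 1 to 5. The groups did not overlap, although array 10 came close to the lowest ShCtrl array, and arrays 10 and 4 were each the highest of their group. The means were 12.9 ± 0.50 and 14.1 ± 0.25, a difference of -1.18 (SE 0.22), or -1.29 without these arrays.

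Slc38a2 was at 16.33, 16.18, 16.46, 16.13 and 16.42 on ShBNIP3 arrays 6 to 10, against 17.16, 17.24, 17.36, 16.52 and 17.07 on ShCtrl arrays 1 to 5. The groups did not overlap, but ShCtrl array 4 came close to the highest ShBNIP3 array. The means were 16.3 ± 0.14 and 17.1 ± 0.33, a difference of -0.76 (SE 0.16), or -0.93 without arrays 4 and 10. Array 4 was the lowest ShCtrl array for Slc38a2 and the highest for its neighbour Slc38a1.

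**Figure D2:**
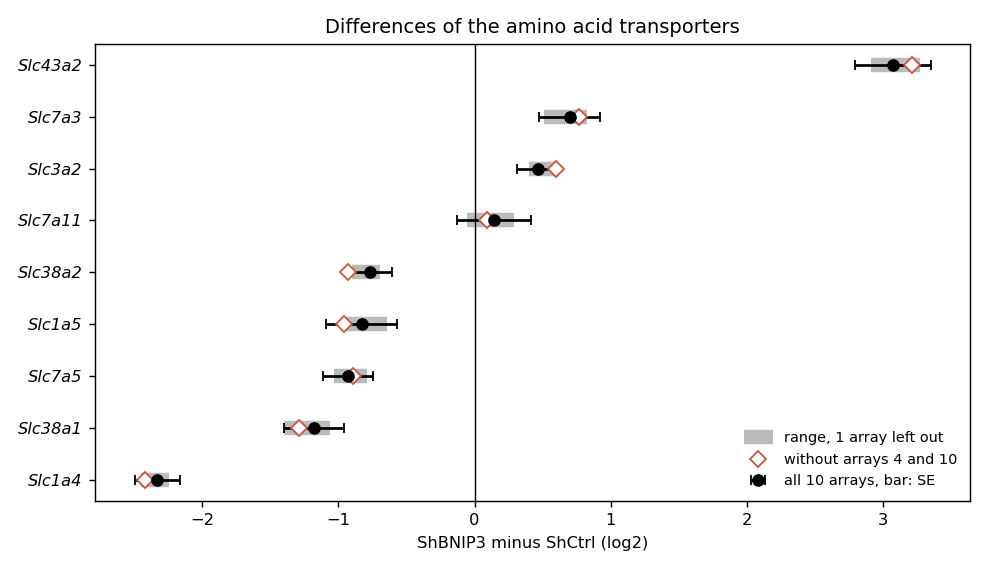
Differences (ShBNIP3 minus ShCtrl, log2) of the 9 transporters with SE, the range when 1 array is left out (grey) and the value without arrays 4 and 10 (diamond). They run from -2.33 for Slc1a4 to 3.07 for Slc43a2, and the range crosses 0 for Slc7a11.

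In order of their differences the genes ran Slc1a4, Slc38a1, Slc7a5, Slc1a5, Slc38a2, Slc7a11, Slc3a2, Slc7a3 and Slc43a2. The differences of Slc1a4 and Slc43a2 were separated from their neighbours in this order by more than the SE of either. Those of Slc7a5 and Slc1a5, and of Slc1a5 and Slc38a2, neighbours in the order between -0.93 and -0.76, lay closer to each other than the SE of either. Slc38a1, at -1.18, lay apart from Slc7a5 by little more than its SE of 0.22. Within the groups, the genes did not move together from array to array. On ShBNIP3 array 10, Slc38a1 lay 1.11 and Slc1a5 0.62 above the mean of the other 4 ShBNIP3 arrays, while Slc7a11, Slc7a5 and Slc3a2 lay at -0.75, -0.71 and -0.65 from it. On ShCtrl array 4, Slc43a2 lay 0.78 and Slc38a1 0.56 above the other ShCtrl arrays, and Slc7a11, Slc38a2, Slc1a4 and Slc7a5 lay at -1.004, -0.69, -0.60 and -0.53 from them. Array 10 was the highest or lowest ShBNIP3 array for 5 of the 9 genes and array 4 the highest or lowest ShCtrl array for 6, while the other arrays had that place for 1 to 4.

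**Figure D3:**
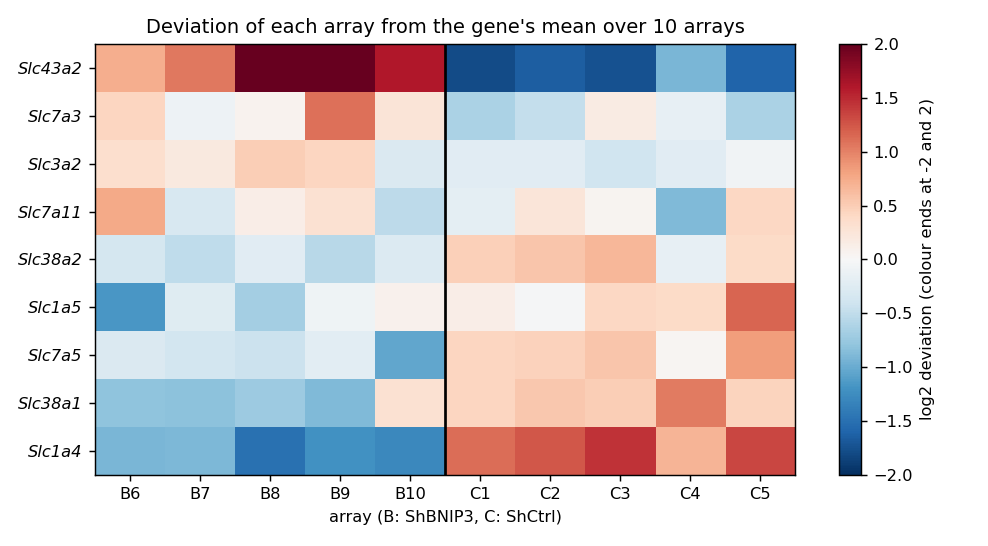
Deviation of each array from the gene's mean over 10 arrays (log2, colour), ShBNIP3 arrays left and ShCtrl arrays right of the line, genes in order of their difference. Slc1a4 and Slc43a2 change colour at the line, as does Slc7a5 more faintly (0.04 on ShCtrl array 4). Arrays 10 and 4 depart from their neighbours in both directions.

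For the members whose group means differ by at least 1 log2 unit, the array patterns most like theirs were sought among 15036 other named genes, by the mean absolute gap between deviations from the gene's own mean over 10 arrays. Nearest to Slc43a2 were Sfrp4, a secreted Wnt antagonist (gap 0.26), Slpi, an inhibitor of leukocyte proteases (0.27), and Bmp2 (0.30). For Slc1a4 they were Wdr83os (0.15), Pigs (0.17) and Aph1a (0.17), and for Slc38a1 Tfap2a (0.12), Klf13 (0.12) and Myo1d (0.13). Among the measured members alone, the nearest stood at place 662 for Slc43a2 (Slc7a3), 373 for Slc1a4 (Slc38a1) and 476 for Slc38a1 (Slc38a2). No place was taken for amino acid carriers outside the members, and some of them may lie nearer. The gap is set mainly by the size of the group difference and is given as a description.

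The 9 measured members had no single direction, with 5 negative and 4 positive differences. Amino acid carriers outside the list were compared next, gene by gene. Of 45 listed, 41 have a named probeset, and 28 of these lay below background on all 10 arrays. In limma 3 of the 41 passed, all lower in ShBNIP3 (4 higher and 5 lower at an unadjusted p under 0.05), beside 15.5% of all probesets. Slc36a1, a proton-coupled exporter of small amino acids from lysosomes, was at 6.39, 6.42, 7.27, 6.29 and 6.76 on ShBNIP3 arrays, against 8.21, 9.05, 8.75, 8.28 and 8.67 on ShCtrl arrays (difference -1.97, SE 0.21, limma adjusted p = 6.01e-05). All ShBNIP3 values were lower than any ShCtrl value, and 3 of them were below background. Slc7a6, a light chain of Slc3a2 that exchanges cationic for neutral amino acids, averaged 7.18 ± 0.51 in ShBNIP3 and 8.74 ± 0.24 in ShCtrl (difference -1.56, SE 0.22, limma adjusted p = 0.00049). Slc38a7, a glutamine and asparagine carrier of the lysosome, averaged 12.3 ± 0.25 and 13.5 ± 0.14 (difference -1.27, SE 0.14, limma adjusted p = 6.60e-05). Each of these 3 had groups that did not overlap and passed with any 1 array left out.

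Without ShBNIP3 array 10, 6 of the 41 passed, and without arrays 4 and 10, 7 passed, 6 lower and 1 higher. The additions were Slc7a7, a further light chain of Slc3a2 for cationic amino acids (-1.10, limma adjusted p = 0.0916 with all arrays, and -1.56, 0.00284 without arrays 4 and 10), Slc6a6, the taurine carrier (-0.80, 0.263, and -0.86, 0.0130), Slc6a9, a glycine carrier (-0.65, 0.121, and -0.76, 0.000939), and Slc1a1, higher but below background on every array. Without array 10 alone Slc6a9 was not among the 6. The lysosomal arginine sensor Slc38a9 differed by 0.37 (limma adjusted p = 0.117), Slc7a8, another light chain, by 0.10 (0.866), Slc36a4 by -0.04 (0.938) and the glutamate carrier Slc1a3 by -0.21 (0.628). Slc38a5 was below background on all arrays. Of the light chains that pair with Slc3a2, Slc7a5 and Slc7a6 were thus lower without overlap, Slc7a7 was lower with overlap, and Slc7a8 and Slc7a11 had differences smaller than their SE.

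**Figure D4:**
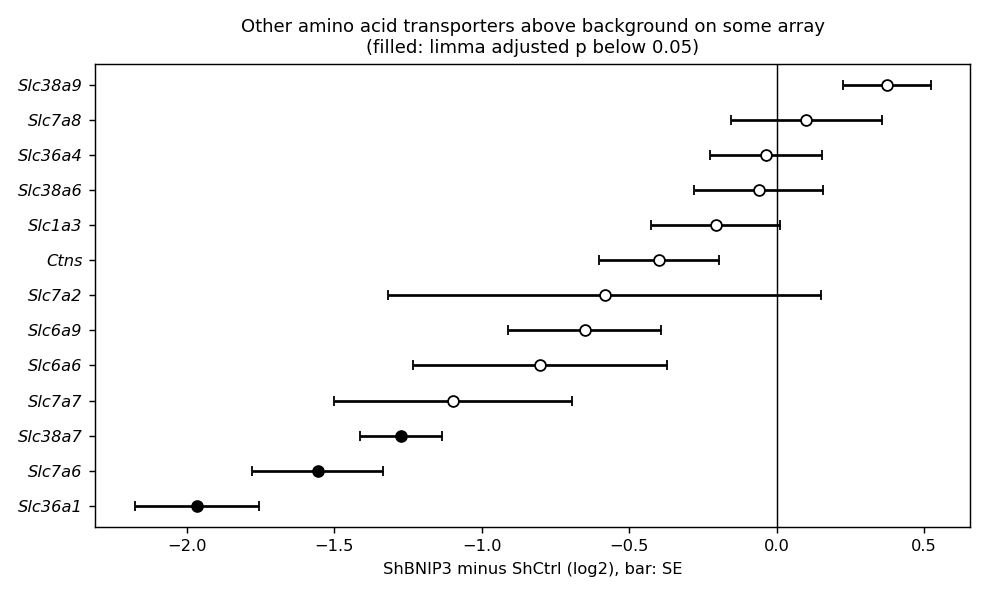
Differences (ShBNIP3 minus ShCtrl, log2, with SE) of the 13 other amino acid transporters above background on at least 1 array, with filled points for limma adjusted p under 0.05. Slc36a1, Slc7a6 and Slc38a7 are filled and lie at -1.97, -1.56 and -1.27.

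Slc7a2, the carrier that supplies arginine in many cell types, had the widest spread. It was at 10.66, 11.36, 11.37, 11.55 and 14.12 on ShBNIP3 arrays 6 to 10, against 11.75, 12.03, 11.24, 15.13 and 11.83 on ShCtrl arrays 1 to 5. The high values were on arrays 10 and 4, the ones that stand apart. The difference of -0.58 (SE 0.73, limma adjusted p = 0.694) was 0.10 without ShCtrl array 4. Among the 275 named SLC genes that are neither members nor on the list of other amino acid carriers, 24 passed higher (8.73%) and 16 lower (5.82%), 14.5% in all, near the share of all probesets, with a median difference of 0.04.

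Of 24 measured regulators of amino acid transporter genes, 6 fell and 2 rose in limma, beside 7.87% lower and 7.61% higher among all probesets (17.1% of named genes in either direction). Atf4 was lower without overlap, at 15.55, 15.28, 15.07, 15.42 and 15.27 on ShBNIP3 arrays, against 16.26, 16.21, 15.91, 16.69 and 16.25 on ShCtrl arrays (-0.94, SE 0.15, limma adjusted p = 0.00103). Of the other regulators, those called lower besides Myc were Ddit3 (-2.50), Ppp1r15a (-2.22), Atf5 (-1.94) and Trib3 (-2.79, limma adjusted p = 0.0155, and 0.0565 when the prior variance was trended and robust). Trib3 was at -2.79 (limma adjusted p = 5.50e-05) with arrays 4 and 10 both left out. Others linked to the same stress response were not called, among them Atf3 (-1.61, limma adjusted p = 0.0807), Nupr1 (0.35, 0.127) and Cebpg (0.20, 0.314). Atf3 was still lower without overlap, at most 7.36 in ShBNIP3 and at least 7.89 in ShCtrl, where array 4 was at 11.63. Nor were the ATF4 targets Asns (-0.20, 0.592), Psph (0.13, 0.739) and Chac1 (-0.07, 0.954) called, all 6 genes named after their values were seen. Chac1 was at 5.55 on ShCtrl array 4, against 7.95 to 8.37 on the other ShCtrl arrays and 6.96 to 8.41 on ShBNIP3 arrays. These 6 genes were not refitted without arrays 4 and 10. Asns, Psph and Chac1 come from the 37 genes of amino acid synthesis and breakdown, 20 with negative and 17 with positive differences. Psat1 (-0.78, limma adjusted p = 0.0749) and Aldh18a1 (-0.76, 0.0557) of that list, also named after their values were seen, and Shmt2 (-0.68, 0.0105) lay lower. Whether ATF4 targets as a set followed Atf4 was not tested. Myc, a factor that binds the E-box, fell as well (-2.86, SE 0.21, limma adjusted p = 2.47e-06). Nfe2l2, the regulator of Slc7a11 through the antioxidant response element, differed by -0.54 (limma adjusted p = 0.124, or 0.00299 without arrays 4 and 10). The uncharged-tRNA sensor Eif2ak4 (GCN2) rose by 0.52 (limma adjusted p = 0.0334, but above 0.05 when any of 7 arrays was omitted, up to 0.0787). Its inhibitor Impact, below background on all ShCtrl arrays, was at least 1.62-fold higher (limma adjusted p = 0.0106).

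The genes that sense amino acids for mTORC1, the growth-controlling kinase complex of the lysosome, had no common direction, with 7 of 35 higher and 5 lower (5 and 2 without ShCtrl array 3), beside 7.61% and 7.87% of all probesets. Sar1b, a leucine sensor, the GTPase Rraga, Sec13 and Bmt2, which binds S-adenosylmethionine, rose by 1.11, 0.75, 0.90 and 0.73. Castor2 was called higher too, by at least 1.05-fold, but lay below background on all ShCtrl arrays and on 2 ShBNIP3 arrays. Lamtor1, the lysosomal anchor of the complex (-1.20), the arginine sensor Castor1 (-0.89, limma adjusted p = 0.0195, but up to 0.0539 and above 0.05 when any of 4 arrays was omitted) and the leucine sensor Sesn2 (-1.56, 0.0424, but up to 0.103 and above 0.05 for any of 8) fell. With arrays 4 and 10 both left out, Castor1 was at -1.02 (limma adjusted p = 0.000341) and Sesn2 at -1.70 (7.94e-06). Of 37 genes of amino acid synthesis and breakdown 3 rose and 6 fell (4 and 10 without ShCtrl array 4), 24.3% in all beside 15.5% of all probesets. The arginase Arg1 was higher, at 8.32 in ShBNIP3 and 6.51 in ShCtrl, where it was below background on 4 of 5 arrays, so the size of its difference is uncertain (limma adjusted p = 0.000117). The branched-chain transaminase Bcat2 fell (-1.76), while the branched-chain dehydrogenase subunit Bckdhb rose by 0.70. Got2 (-0.75), Shmt2 (-0.68) and Got1 (-0.59) fell. Asl, which releases arginine in the urea cycle, rose by 0.94 (limma adjusted p = 0.0217, up to 0.0565 and above 0.05 for 2 omitted arrays), and Ivd of leucine breakdown fell (-0.52, 0.0241, up to 0.0643 and above 0.05 for 6). With arrays 4 and 10 both left out, Asl was at 0.79 (limma adjusted p = 0.0301) and Ivd at -0.64 (0.00331). Of 15 partners of these transporters 3 rose and 1 fell, 26.7% in all beside the same 15.5%. Itgb1, which binds CD98, rose by 0.52 and Bsg by 0.49, the arrestin Arrdc3 rose by 0.67 (limma adjusted p = 0.0482, up to 0.118 and above 0.05 for 9), and the galectin Lgals3, a ligand of CD98 glycans, fell (-1.09). Arrdc3 was not called with arrays 4 and 10 both left out (0.54, limma adjusted p = 0.0742).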

How the data were processed

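RNA of 10 samples was measured on rat whole-transcript arrays. The deposited log2 values, 1 per probeset and array, were made by the authors with sst-rma normalization, per the labels, and Transcriptome Analysis Console is the tool given in the submitters' processing notes. Version, genome build and detection p-values are not given in the sources used here. The extraction protocol in the labels also describes disc tissue of mice, which matches neither organism nor treatment and was not used. The table held 24834 probesets. The 1646 controls were left out, leaving 23188, of which 15049 carry 1 symbol in the platform annotation and 8139 none (15037 genes, the brighter probeset where a gene has several). Array medians were 6.16 to 6.19. The number of arrays limits the precision.

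Groups were taken from sample titles. Differences were fitted with limma 3.58.1 in R 4.3.3 (lmFit and eBayes) over all 23188 probesets, two-sided, and p-values were adjusted by Benjamini-Hochberg and called under 0.05. The fit was tested on simulated data with independent noise for each probeset and array, which does not cover arrays that stand apart as 4 and 10 do. Background was the 95th percentile of 23 antigenomic probesets of each array, and a group below it on every array gives a bound, the brighter mean over the background level. Members, gene lists and tests were chosen with earlier results of these data known. Named genes were all members, a fixed set of regulators and other carriers, and from the lists those called with the largest differences, up to 10 or 8 a list. Alternatives were another variance model, quantile normalization, median centring, a filter on dim probesets, array weights, each array left out, and arrays 4 and 10 left out. Promoter windows are RefSeq, GRCr8.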

Additional observations from a re-analysis of the deposited data

Results flagged for a closer look

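In 22 of 106 groups of 5 arrays, 1 array stood away from the other 4, its gap to the nearest being more than 0.71 of the range of the group, and chance gives about 1 in 20. Of these, 12 were on ShCtrl array 4, 8 on ShBNIP3 array 10 and 2 on other arrays. On ShBNIP3 array 10, Slc38a1 was high at 13.80 (0.863 of the range) and Slc7a5 low at 11.78 (0.727). On ShCtrl array 4, Slc43a2 (8.74, 0.791) and Slc38a1 (14.54, 0.822) were high. Other carriers high on these arrays were Slc7a2 (0.744 on array 10 and 0.797 on array 4) and Slc6a6 (0.792 on array 4). Slc6a9 was low on both (0.723 on array 10 and 0.768 on array 4), Slc1a3 low on array 10 (0.751) and Slc7a6 low on array 4 (0.721). Among the other genes, Nfe2l2 (0.775 and 0.835) and Sesn2 (0.745 and 0.849) were low on array 10 and array 4, Got2 was high on array 10 (0.749), and Castor1 (0.821), Rraga (0.776), Bcat2 (0.747) and Ivd (0.898) were low on array 4. The remaining ones were low values of Arg1 on ShCtrl array 2 (0.843) and of Arrdc3 on ShCtrl array 3 (0.888).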

How the results depend on the processing

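The direction held for each of the 9 listed transporters under every alternative in which it was measured, except Slc7a11. That gene ranged from -0.06 to 0.29 with 1 array left out. The filter on dim probesets kept 8 of the 9 and dropped Slc7a3. The median of the 9 was -0.76, and -0.83 to -0.64 with 1 array left out. The number called ranged from 4 to 5 lower and from 1 to 3 higher over the settings. Bnip3 lay between -3.53 and -2.87. The count of all probesets called, 3590, was 2746 to 3960 with 1 array left out and 4622 without arrays 4 and 10. Counts that moved by more than 1.5 times were those of other amino acid transporters (3, against 6 with array weights, 7 without arrays 4 and 10, and 3 to 6 with 1 array left out), of amino acid synthesis and breakdown (9, against 14 without arrays 4 and 10 and 6 to 14 with 1 array left out), of sensing upstream of mTORC1 (12, against 7 to 14 with 1 array left out), of other SLC genes (40, against 61 without arrays 4 and 10) and of transporter partners (4, against 7 without arrays 4 and 10). The cause was not tested. With 1 array left out, the differences of Slc36a4 (-0.19 to 0.06), Slc7a2 (-1.16 to 0.10) and Slc7a8 (-0.11 to 0.26), none of them called, changed sign: Slc36a4 was 0.05, 0.063, 0.02 and 0.01 without arrays 5, 6, 7 and 9, Slc7a2 0.10 without array 4, and Slc7a8 -0.11 and -0.01 without arrays 4 and 7. No paired analysis was possible because the 2 groups share no replicate numbers. Slc7a3 and Slc1a5 are limited by their closeness to background.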

Other observations

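The inducible nitric oxide synthase Nos2, an enzyme that uses arginine, named after its values were seen, was at 6.42, 6.55, 8.69, 8.59 and 11.01 on ShBNIP3 arrays 6 to 10, against 5.505, 5.55, 4.13, 12.46 and 5.81 on ShCtrl arrays 1 to 5. Its highest values in each group were on arrays 10 and 4, as for Slc7a2. Txnip, a glucose-responsive arrestin also named after its values were seen, was at 15.65, 15.60, 15.35, 15.65 and 10.39 on ShBNIP3 arrays, against 15.14, 15.34, 15.15, 7.62 and 15.32 on ShCtrl arrays. It was far lower on arrays 10 and 4 than on the other arrays of their groups. The asparagine synthetase Asns, a classical ATF4 target, was also named after its values were seen. It differed by -0.20 (SE 0.19, limma adjusted p = 0.592) and was lowest in its group on the same arrays, at 15.00 on array 10 and 15.63 on array 4.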
